A study of Mus musculus with 8 samples.

Results

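The genes described here are 9 markers of primitive and visceral endoderm, taken by their symbols from an RNA-seq count table of 32567 mouse genes in all 4 of its libraries. They are the transcription factors Gata4, Gata6, Sox7, Sox17 and Hnf4a and the secreted proteins Afp, Ttr, Apoa1 and Apob. The set, and the lists it is compared with, were chosen with earlier results of these data known. The rule names symbols and no expression value, and all 9 were found in the table. They held between 634 and 1924 counts in a library, or between 5.73 and 23.0 CPM for the whole set, where CPM is the count scaled to a library of 1000000.

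Primitive endoderm is the layer that separates from the pluripotent epiblast in the blastocyst. GATA factors and SOX17 act early in this lineage, and SOX7 is linked to its parietal branch, which lines the outer yolk sac and lays down a thick basement membrane. The visceral branch surrounds the epiblast, takes up and secretes nutrients and, under factors such as HNF4A, makes a set of proteins that the fetal liver also makes: the plasma carriers alpha-fetoprotein (Afp) and transthyretin (Ttr) and the lipoprotein components encoded by Apoa1 and Apob. Aggregates of embryonic stem cells called embryoid bodies can form an outer layer of this kind, and retinoic acid is a known inducer of endoderm in some stem cell cultures and of neural cells in others. Several of the genes are also used elsewhere, GATA4 and GATA6 in heart muscle, SOX7 and SOX17 in endothelium and Ttr in the choroid plexus of the brain.

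Mouse embryonic stem cells (ESC) and cells differentiated from them through embryoid bodies with retinoic acid (RA-DIFF) were compared between a wild-type line and a line homozygous for the Hdh ex4/5 null allele of the huntingtin gene Htt (Htt-null). The ESC had been taken off their feeder cells for 4 passages before embryoid bodies were formed. Each of the 4 conditions has 1 library, so there is no replicate error, no single pair of libraries could be tested against one, and every interval given is a 95% interval that covers counting error alone. The sources used here describe 1 line per genotype, so differences between lines and differences due to the allele cannot be told apart. In bulk RNA, fewer cells of a type and less RNA per cell cannot be told apart either.

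Library totals ran from 63617410 to 110569127 counts, at which a count of 0 allows up to 0.0271 to 0.0472 CPM. All 6 pluripotency genes listed were lower past the fold defined below in both RA-DIFF libraries (summed level 3090 and 3156 CPM in ESC, 46.1 and 21.6 CPM in the libraries labelled wild type and Htt-null), and all 6 neural genes were higher (69.2 and 122 CPM in ESC, 3039 and 1947 CPM in RA-DIFF). Over all genes 26.2% and 24.9% were lower and 34% and 34.4% higher, in the cells labelled wild type and Htt-null. Htt itself had 164 CPM in wild-type ESC and 114 CPM in Htt-null ESC, but the order was reversed in RA-DIFF, with 74.3 CPM under the wild-type label and 96.3 CPM under the Htt-null label. In the readable part of the gene table that accompanies the study, moreover, each RA-DIFF column matches the library with the opposite deposited label, while the ESC columns match their own labels. The RA-DIFF libraries are therefore called by their labels throughout, and calls that change when the labels are exchanged are also given that way.

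The promoters of the genes with an entry are shown first, among them those of Hnf4a and Apob, as the 250 bases before the start of a RefSeq transcript (GRCm38.p6, all on the plus strand). Positions below are counted from that RefSeq start. The gene starts in the deposited table, from another annotation, lie 50 bases before it for Apoa1, 49 before the upstream start of Hnf4a, 29 before that of Apob and 23 after that of Afp. Entries were found for 4 of the 9 genes, with Hnf4a, which has an upstream start and a second start inside the longer gene, represented by both. Matches to the GATA motif (A or T, then GATA, then A or G), the HNF4 motif (CAAAGTCCA) and the TATA box (TATAAA), on either strand, are in capitals.
Hnf4a promoter 1, chr2:163506607-163506856: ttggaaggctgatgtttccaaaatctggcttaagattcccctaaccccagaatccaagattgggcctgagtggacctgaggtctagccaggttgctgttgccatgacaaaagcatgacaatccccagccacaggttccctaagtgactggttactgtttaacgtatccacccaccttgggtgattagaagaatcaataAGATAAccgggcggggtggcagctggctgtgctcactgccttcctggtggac
Hnf4a promoter 2, chr2:163546905-163547154: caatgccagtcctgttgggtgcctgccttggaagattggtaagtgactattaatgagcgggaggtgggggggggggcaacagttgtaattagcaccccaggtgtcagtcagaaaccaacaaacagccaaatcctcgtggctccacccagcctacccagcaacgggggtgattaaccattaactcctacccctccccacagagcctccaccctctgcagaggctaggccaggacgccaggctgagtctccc
Afp, chr5:90490464-90490713: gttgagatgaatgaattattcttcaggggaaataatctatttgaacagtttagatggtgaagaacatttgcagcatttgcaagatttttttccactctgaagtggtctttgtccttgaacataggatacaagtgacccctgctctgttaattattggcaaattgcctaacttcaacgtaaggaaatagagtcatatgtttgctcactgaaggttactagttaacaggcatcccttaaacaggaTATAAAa
Apoa1, chr9:46228380-46228629: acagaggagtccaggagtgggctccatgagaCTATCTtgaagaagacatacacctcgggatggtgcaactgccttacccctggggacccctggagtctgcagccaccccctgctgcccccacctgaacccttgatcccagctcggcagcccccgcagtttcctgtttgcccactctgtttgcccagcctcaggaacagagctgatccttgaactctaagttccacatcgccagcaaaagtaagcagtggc
Apob, chr12:7977427-7977676: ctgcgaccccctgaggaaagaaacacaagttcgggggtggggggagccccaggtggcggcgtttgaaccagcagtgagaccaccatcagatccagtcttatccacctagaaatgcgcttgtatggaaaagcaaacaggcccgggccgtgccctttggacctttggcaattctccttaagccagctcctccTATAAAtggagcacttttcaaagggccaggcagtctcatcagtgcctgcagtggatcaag

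Hnf4a promoter 1 held 1 GATA match, AGATAA, at positions -52 to -47 from the start, and the Apoa1 promoter held 1 on the opposite strand, CTATCT, at -219 to -214. A GATA match of this kind occurred in 26.5% of 32851 mouse promoters of the same length. Hnf4a promoter 2 held no match to any of the motifs searched. The TATA box was found in the Afp promoter at -7 to -2 and in the Apob promoter at -60 to -55, against 12.4% of all promoters. The exact HNF4 string CAAAGTCCA, which 0.384% of all promoters held, was not found in these windows on either strand. Other forms of HNF4 site were not searched for, so their absence is not shown. None of the matches overlapped another. The Afp window was low in G and C (36%), whereas those of Apoa1 (58%), Hnf4a promoter 2 (57.6%) and Apob (55.2%) lay above the median of all promoters (52.4%) and that of Hnf4a promoter 1 (51.2%) lay just below it. These are descriptions of letters in a window, and binding was not measured.

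Comparisons were made on counts scaled by TMM factors (0.976 to 1.03). A gene was called higher or lower past the fold when its log2 ratio between a pair of libraries exceeded 0.75 in size and its mean log2 CPM over the 4 libraries was above 0, a limit that 15492 genes passed. Gata4, Gata6, Sox7, Sox17, Hnf4a and Apob were above this limit. Afp, Ttr and Apoa1 were below it and are given by their counts. Hnf4a and Apob passed through their ESC levels, with under 20 counts in each RA-DIFF library, so a large difference for them was partly set by the limit. Gata6 (0.859 and 0.981 CPM in RA-DIFF) and Sox17 (0.597 and 0.812 CPM) also passed through their ESC levels. A fall of these genes after differentiation was likewise partly set by the limit.

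Gata4 encodes a zinc finger factor that binds GATA motifs in primitive endoderm and heart, and was counted 318 times in wild-type ESC, 282 times in Htt-null ESC, 248 times in RA-DIFF labelled wild type and 200 times in RA-DIFF labelled Htt-null. In the same order these are 3.62, 4.43, 2.24 and 1.98 CPM. Both ESC libraries lay above both RA-DIFF libraries. From ESC to RA-DIFF the log2 ratio was -0.73 in the cells labelled wild type, a ratio of 0.604 (0.509 to 0.715) just inside the fold (past it, at -0.78, with DESeq2 size factors). In those labelled Htt-null it was -1.09, so Gata4 fell there. With the RA-DIFF labels exchanged both were past the fold (-0.85 and -0.97).

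Gata6 encodes the GATA factor needed to start the primitive endoderm programme. It was counted 381, 170, 95 and 99 times, in the order wild-type ESC, Htt-null ESC, RA-DIFF labelled wild type and RA-DIFF labelled Htt-null, or 4.33, 2.67, 0.859 and 0.981 CPM. The RA-DIFF libraries lay close together and below both ESC libraries, which differed from each other. Gata6 fell 5.18-fold (4.13 to 6.56) in the cells labelled wild type and 2.59-fold (2.01 to 3.36) in those labelled Htt-null.

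Sox7, an SRY-related factor of parietal endoderm and of early endothelium, had 148 and 75 counts in wild-type and Htt-null ESC and 118 and 218 counts in the RA-DIFF libraries labelled wild type and Htt-null. The levels were 1.68, 1.18, 1.07 and 2.16 CPM. The highest library was thus an RA-DIFF library, the only such case among the 6 genes above the limit, and the ranges of the stages overlapped. The log2 ratio from ESC to RA-DIFF was -0.70 in the cells labelled wild type, inside the fold, and 0.94 in those labelled Htt-null, past it, a ratio of 1.93 (1.47 to 2.54). With the RA-DIFF labels exchanged the values were 0.38 and -0.13, both inside the fold.

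Sox17 belongs to the same SOX subgroup and acts in primitive and definitive endoderm. Its counts were 129 in wild-type ESC, 89 in Htt-null ESC, 66 in RA-DIFF labelled wild type and 82 in RA-DIFF labelled Htt-null, which gives 1.47, 1.40, 0.597 and 0.812 CPM. The ESC values were almost level and both lay above the RA-DIFF values. Sox17 fell by 1.33 on the log2 scale in the cells labelled wild type. In those labelled Htt-null its log2 ratio of -0.71 stayed inside the fold (past it, at -0.78, when scaled by library size alone), and with the labels exchanged both fell past it (-0.84 and -1.21).

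Hnf4a, a nuclear receptor at the head of the secretory programme of visceral endoderm and liver, showed the widest range among the 6 genes above the limit. It was counted 460 times in wild-type ESC and 658 times in Htt-null ESC, but 18 times in RA-DIFF labelled wild type and 2 times in RA-DIFF labelled Htt-null. Its levels were 5.23, 10.3, 0.163 and 0.0198 CPM, the last with an interval of 0.00543 to 0.0723 CPM. Both RA-DIFF libraries lay far below both ESC libraries. Hnf4a fell 33.0-fold (20.7 to 56.2) in the cells labelled wild type and 497-fold (137 to 4110) in those labelled Htt-null, the second ratio resting on 2 counts. With the labels exchanged these were 261-fold (71.9 to 2163) and 62.8-fold (39.4 to 107).

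**Figure D1:**
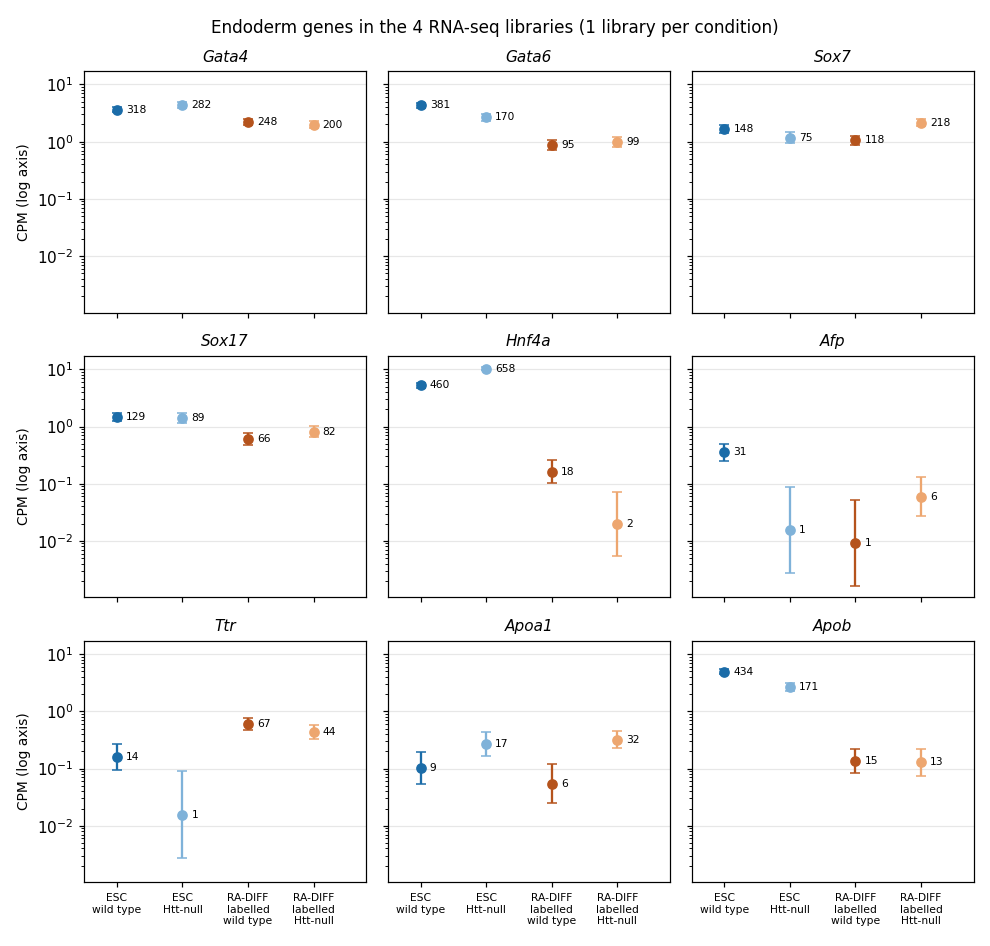
Level of each of the 9 genes in CPM (log axis) in the 4 libraries, with Wilson 95% intervals for counting error and the count written beside each point. Hnf4a and Apob drop from 2.69 CPM or more in ESC to 0.163 CPM or less in RA-DIFF, Gata4, Sox7 and Sox17 stay between 0.597 and 4.43 CPM, and Afp, Ttr and Apoa1 stay under 1 CPM in every library.

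Among the secreted proteins, Apob, which encodes the structural protein of large lipoproteins, had 434 counts in wild-type ESC, 171 in Htt-null ESC, 15 in RA-DIFF labelled wild type and 13 in RA-DIFF labelled Htt-null. The levels were 4.94, 2.69, 0.136 and 0.129 CPM. As for Hnf4a, both ESC libraries lay far above both RA-DIFF libraries, which here were level with each other. Apob fell 37.4-fold (22.4 to 67.4) in the cells labelled wild type and 19.9-fold (11.3 to 38.1) in those labelled Htt-null.

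Afp, the main plasma protein of yolk sac and fetal liver, had 31 counts in wild-type ESC, 1 in Htt-null ESC, 1 in RA-DIFF labelled wild type and 6 in RA-DIFF labelled Htt-null. Only the wild-type ESC library held more than a few reads, at 0.353 CPM (0.248 to 0.500). Apoa1, the main protein of high-density lipoprotein, had 9, 17, 6 and 32 counts in the same order, or 0.102, 0.267, 0.0543 and 0.317 CPM. The higher value of each stage was in the library labelled Htt-null.

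Ttr, which carries thyroid hormone and, with retinol-binding protein, retinol, went the other way from most of the set. It had 14 and 1 counts in wild-type and Htt-null ESC and 67 and 44 counts in the RA-DIFF libraries labelled wild type and Htt-null, or 0.159, 0.0157, 0.606 and 0.436 CPM. Both RA-DIFF values were above both ESC values. The ratio of RA-DIFF to ESC was 3.70 (2.06 to 7.14) in the cells labelled wild type and 29.1 (4.97 to 1177) in those labelled Htt-null, where the ESC side is a single count.

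Per kilobase of annotated exon, which allows genes to be compared with each other, all 9 genes were low. The highest value of any was 2.14 RPKM (CPM per kilobase of exon) for Hnf4a in Htt-null ESC, against a median of 5.04 RPKM over the genes above the limit in that library. In wild-type ESC the order by RPKM was Hnf4a (1.08), Gata4 (0.926), Gata6 (0.666), Sox7 (0.510), Apob (0.354), Sox17 (0.307), Ttr (0.134), Afp (0.105) and Apoa1 (0.0828). The intervals of Hnf4a and Gata4 overlapped, as did those of Apob and Sox17, and the last 3 could not be ordered among themselves. In Htt-null ESC Hnf4a (2.14) and Gata4 (1.14) again led, apart from each other and from the rest. From Gata6 (0.411) through Sox7 (0.357), Sox17 (0.293) and Apoa1 (0.216) to Apob (0.193) the interval of each gene overlapped that of the next, as did those of Ttr (0.0133) and Afp (0.00467) at the bottom.

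After differentiation the order was different. In the library labelled wild type it ran from Gata4 (0.575) and Ttr (0.511), whose intervals overlapped, through Sox7 (0.323) to Gata6 (0.132) and Sox17 just under it, which overlapped, and on to Apoa1 (0.0439), Hnf4a (0.0337), Apob (0.00974) and Afp (0.00269). Apoa1 overlapped Hnf4a and Apob overlapped Afp. Hnf4a had moved from the first to the seventh place. In the library labelled Htt-null it ran Sox7 (0.655), Gata4 (0.508), Ttr (0.368), Apoa1 (0.257), Sox17 (0.170), Gata6 (0.151), Afp (0.0177), Apob (0.00924) and Hnf4a (0.00410). There Hnf4a was last, and every neighbour in this order overlapped the next except Gata6 and Afp. Hnf4a stood above 62.3% and 67.5% of genes in the ESC libraries and above 25.9% and 14.8% in the RA-DIFF libraries labelled wild type and Htt-null.

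**Figure D2:**
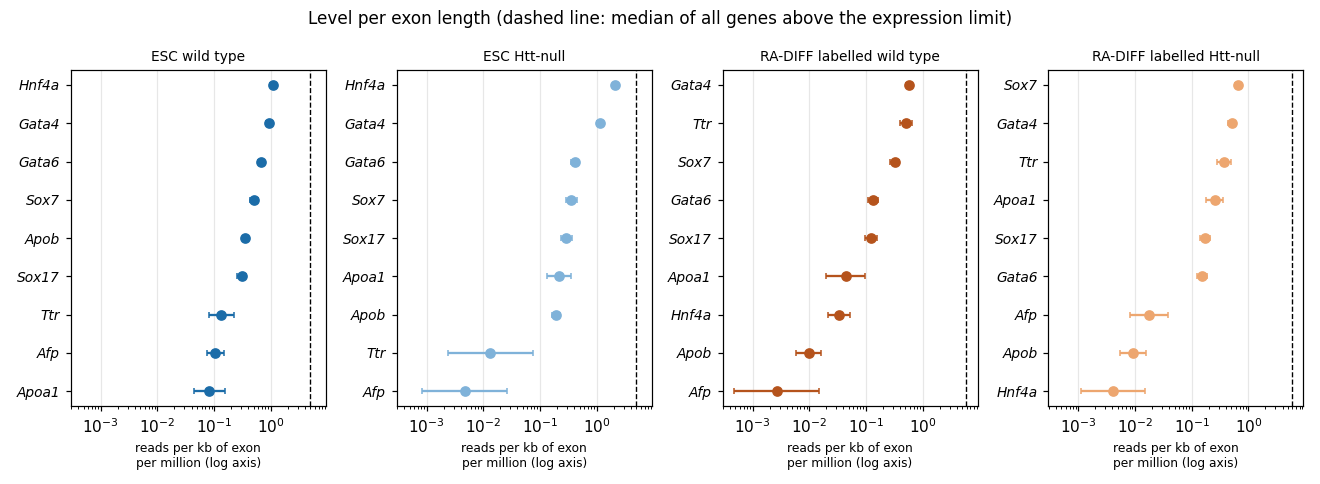
Level per exon length (RPKM, log axis) of the 9 genes in each library, sorted within the library, with Wilson 95% intervals for counting error and a dashed line at the median of all genes above the expression limit. Hnf4a is at the top in both ESC libraries, seventh in RA-DIFF labelled wild type and last in RA-DIFF labelled Htt-null, and every gene lies left of the dashed line.

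The first comparison was the change from ESC to RA-DIFF within each line. In the cells labelled wild type, 4 of the 6 genes above the limit were lower past the fold (Gata6, Sox17, Hnf4a and Apob), 0 were higher, and Gata4 and Sox7 stayed inside it. Over all 15492 genes 26.2% were lower and 34% higher, with a median log2 ratio of 0.12 against -1.85 for the 6 genes. These 4 lower genes had passed the limit through their ESC levels, and Ttr, with more counts in RA-DIFF, was below it. The contrast with all genes was therefore partly set by the limit, here and in the comparisons that follow. In the cells labelled Htt-null, 4 were lower (Gata4, Gata6, Hnf4a and Apob), 1 was higher (Sox7) and Sox17 stayed inside the fold, beside 24.9% lower and 34.4% higher over all genes. The medians were -1.23 for the 6 genes and 0.17 for all genes. With the RA-DIFF labels exchanged, 5 of the 6 were lower and 0 higher in each line, beside 25.3% of all genes lower and 34.5% higher in wild-type cells and 25.5% lower and 33.6% higher in Htt-null cells, and Sox7 alone stayed inside the fold.

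Over all 9 genes, whatever their level, the ratio was below 1 for 8 and above 1 for 1 (Ttr) in the cells labelled wild type, with 1 interval that spanned 1. In the cells labelled Htt-null it was below 1 for 5 and above 1 for 4 (Sox7, Afp, Ttr and Apoa1), with 2 intervals that spanned 1. With the labels exchanged the ratio was below 1 for 6 and above 1 for 3 in wild-type cells, and below 1 for 8 and above 1 for 1 in Htt-null cells. The 9 include Afp, Ttr and Apoa1, which are below the limit. The share of all genes on each side of 1 was not counted. The median log2 ratio over genes above the limit was 0.12 and 0.17 in the cells labelled wild type and Htt-null. With the labels exchanged it was 0.16 and 0.15. By the labels, Hnf4a and Apob stood apart among the genes above the limit. Their log2 ratios were -5.03 and -5.21 in the first pair of libraries and -8.85 and -4.30 in the second. Every other gene above the limit lay between -2.37 and 0.94. Below the limit, Afp was at -5.14 in the first pair (31 counts in ESC and 1 in RA-DIFF) and 1.89 in the second (1 and 6). Ttr was at 1.88 and 4.73.

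Across both lines together, Hnf4a, Apob and Gata6 were also called lower after differentiation by an added test. It was edgeR's quasi-likelihood test with stage and genotype as additive terms, Benjamini-Hochberg adjusted over all 15492 genes, chosen after seeing the data. With 1 residual degree of freedom its error is the disagreement of the lines on the stage change, shared across genes, and not a spread between cultures. The mean log2 ratio of RA-DIFF to ESC was -6.48 for Hnf4a (adjusted p = 0.0177), -4.76 for Apob (adjusted p = 0.00784) and -1.87 for Gata6 (adjusted p = 0.0411). Sox17 (-1.02, adjusted p = 0.137), Gata4 (-0.91, adjusted p = 0.123) and Sox7 (0.12, adjusted p = 0.878) did not pass. So 3 of the 6 were lower and 0 higher, beside 22.3% and 28.9% of all genes. All 3 had passed the expression limit through their ESC levels. Their calls were therefore partly set by the limit and are no separate support for a fall. With the RA-DIFF labels exchanged Hnf4a, Apob and Gata6 again passed and the other 3 did not, beside 24.6% of all genes lower and 32.4% higher. Between genotypes this fit called 0 genes in either direction, by the labels (365 genes at an unadjusted p under 0.05) and with them exchanged (803 genes).

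The level of Hnf4a left after differentiation was set beside that of the pluripotency genes. Hnf4a in RA-DIFF labelled wild type was 3.03% (1.78 to 4.84) of its wild-type ESC level, where Pou5f1, the pluripotency factor OCT4, was at 1.56% (1.48 to 1.65). In the library labelled Htt-null Hnf4a was at 0.201% (0.0243 to 0.730) of Htt-null ESC and Pou5f1 at 0.190% (0.158 to 0.227). With the labels exchanged Hnf4a was at 0.383% (0.0462 to 1.39) and 1.59% (0.938 to 2.54) and Pou5f1 at 0.165% and 1.80%, in wild-type and Htt-null cells. The other pluripotency genes lay between 1.12% (Zfp42) and 5.43% (Klf4) in the first pair and between 0.0814% (Zfp42) and 12.2% (Tbx3) in the second. Between the RA-DIFF libraries, labelled wild type and Htt-null, Hnf4a had 18 and 2 counts and Pou5f1 1324 and 123, but Tbx3 had 287 and 1041 and Klf4 575 and 634. Apob was at 2.67% (1.48 to 4.46) and 5.04% (2.63 to 8.84). The part of remaining undifferentiated cells in the RA-DIFF levels of Hnf4a and Apob was not tested.

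**Figure D3:**
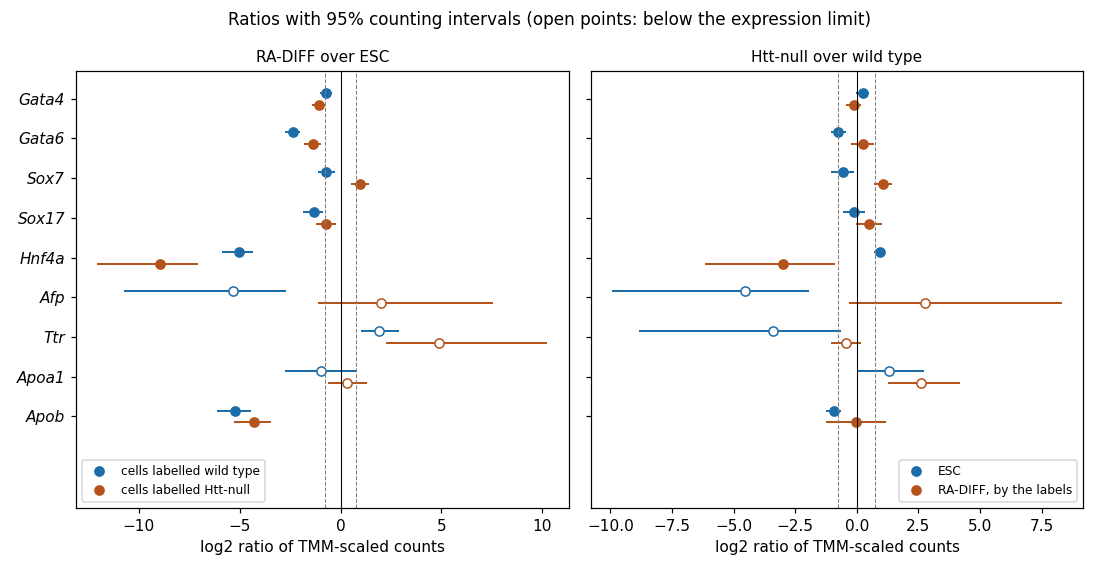
Ratios between libraries for the 9 genes as log2 of TMM-scaled counts, RA-DIFF over ESC on the left and Htt-null over wild type on the right, with exact 95% counting intervals, dashed lines at the fold of 0.75 and open points for genes below the expression limit. Hnf4a and Apob lie far to the left in both lines on the left side. On the right Gata4, Gata6, Sox7, Sox17, Hnf4a and Afp change sides between ESC and RA-DIFF as labelled.

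The second comparison was Htt-null against wild-type ESC, where the library labelled Htt-null was also the one with less Htt RNA. Hnf4a was higher, at 10.3 against 5.23 CPM, a ratio of 1.90 (1.69 to 2.15). Apob was lower, at 2.69 against 4.94 CPM, a ratio of 0.524 (0.436 to 0.627). Gata6 was lower with a log2 ratio of -0.75, which passed the fold only narrowly. By library size alone its log2 ratio was -0.70. Thus 1 of the 6 genes was higher and 2 were lower, beside 5.44% and 3.76% of all genes.

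Gata4 (log2 ratio 0.24), Sox7 (-0.57) and Sox17 (-0.12) stayed inside the fold between the ESC lines. For Sox7 the interval of the ratio was 0.503 to 0.895, so counting error alone did not reach 1, whereas for Sox17 it was 0.692 to 1.21. Of the genes below the limit, Afp had 31 counts in wild-type and 1 in Htt-null ESC, a ratio of 0.0429 (0.00105 to 0.257). Ttr had 14 and 1, a ratio of 0.0950 (0.00225 to 0.624), and Apoa1 had 9 and 17, a ratio of 2.51 (1.06 to 6.39). The 6 pluripotency genes all stayed inside the fold between these libraries, with log2 ratios from -0.49 for Tbx3 to 0.20 for Zfp42. Genes of other cell types did move between them. Of the 8 fibroblast and mesenchyme genes 6 were lower and 0 higher in Htt-null ESC (Col3a1 with 208 and 53 counts, Acta2 with 294 and 92), 4 of 6 neural genes were higher and 0 lower, and of 4 heart muscle genes above the limit 2 were higher and 0 lower, beside 5.44% of all genes higher and 3.76% lower. Their part in the differences of Hnf4a, Apob and Gata6 was not tested.

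The third comparison set the RA-DIFF libraries against each other. By the labels, Sox7 was higher in Htt-null cells, at 2.16 against 1.07 CPM, a ratio of 2.10 (1.67 to 2.65). Hnf4a was lower, with 2 against 18 counts and a ratio of 0.126 (0.0142 to 0.528). The other 4 genes above the limit stayed inside the fold, Gata4 at a log2 ratio of -0.12, Gata6 at 0.25, Sox17 at 0.50 and Apob at -0.02. So 1 was higher and 1 lower, beside 11.9% and 9.31% of all genes. Exchanging the labels turns every sign: Sox7 is then at -1.07 and Hnf4a at 2.91.

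Below the limit, Apoa1 had 32 counts under the Htt-null label and 6 under the wild-type label, a ratio of 6.07 (2.50 to 17.8). Ttr had 44 and 67 (ratio 0.747, 0.499 to 1.11) and Afp 6 and 1 (ratio 6.83, 0.828 to 314). Of these only the interval of Apoa1 left out 1. The comparisons share libraries with each other, so a low value in 1 library, such as the single Ttr count in Htt-null ESC, enters more than 1 of them.

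Other endoderm regulators moved in both directions. Of 8 further endoderm transcription factors in the table, 5 were above the limit, and 3 rose and 2 fell from ESC to RA-DIFF in each line, where 34% and 34.4% of all genes were higher and 26.2% and 24.9% lower. Foxa2, a pioneer factor of endoderm and of the neural floor plate, rose from 28 and 20 counts in ESC to 211 and 1208 in RA-DIFF labelled wild type and Htt-null. Foxa1, its close relative, rose from 255 and 183 to 1218 and 5991. Foxa3, below the limit, had 78 and 89 counts in ESC and 10 and 1 in RA-DIFF. Hhex, a homeobox factor of anterior endoderm, fell from 855 and 490 to 17 and 62, and Nr5a2, which also acts in ESC, from 6250 and 5769 to 191 and 131. Between the ESC lines 0 of the 5 passed the fold, beside 5.44% of all genes higher and 3.76% lower in Htt-null cells. Between the RA-DIFF libraries 3 were higher and 0 lower in the one labelled Htt-null, beside 11.9% and 9.31%.

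The table holds 17 further plasma protein genes. Above the limit were 4, and of these Apoe, Apom and Rbp4 fell in both lines by the labels (with them exchanged, Apom in Htt-null cells was inside the fold at -0.66), while Mttp, the transfer protein that loads lipid onto apolipoprotein B, stayed inside the fold (log2 ratios -0.62 and -0.19). Over all genes 26.2% and 24.9% were lower and 34% and 34.4% higher. Alb had 0, 1, 0 and 9 counts, in the order wild-type ESC, Htt-null ESC, RA-DIFF labelled wild type and RA-DIFF labelled Htt-null, and Fgb 0, 0, 6 and 42. Rbp4, the partner of transthyretin in retinol transport, had 194, 211, 51 and 113 counts and did not share the course of Ttr. Apoe, which many cell types make, was by far the most abundant, with 27607, 18359, 5989 and 4842 counts.

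Of 6 genes of the uptake machinery of visceral endoderm 5 were above the limit, 3 of them lower and 0 higher in the cells labelled wild type (all genes 26.2% and 34%) and 2 lower and 2 higher in those labelled Htt-null (24.9% and 34.4%). With the labels exchanged these counts were 2 lower and 2 higher in wild-type cells (25.3% and 34.5%) and 3 lower and 0 higher in Htt-null cells (25.5% and 33.6%). Lrp2, the megalin receptor, fell from 11623 to 6374 counts in the first pair and rose from 6718 to 31047 in the second, and with the labels exchanged it was higher in wild-type (log2 ratio 1.23) and lower in Htt-null cells (-0.86). Dab2, its endocytic adaptor, was counted 1716 and 1382 times in the first pair (log2 ratio -0.68, inside the fold) and rose from 671 to 4216 in the second (exchanged, 1.11 in wild-type and 0.26 in Htt-null cells). Cubn, the cubilin receptor, fell in both, with 3257, 1165, 764 and 1035 counts over the 4 libraries. Lrp2 and Dab2 therefore had their highest level in RA-DIFF labelled Htt-null, where Sox7 was also highest.

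Of 15 primitive and parietal endoderm genes, 14 were above the limit. In the cells labelled wild type 5 were higher and 7 lower past the fold, and in those labelled Htt-null 7 were higher and 3 lower, beside 34% and 34.4% of all genes higher and 26.2% and 24.9% lower. With the labels exchanged 7 were higher and 3 lower in wild-type cells (all genes 34.5% and 25.3%) and 6 higher and 7 lower in Htt-null cells (33.6% and 25.5%). The collagen IV chains rose in both (Col4a1 by log2 ratios of 2.15 and 2.46, Col4a2 by 2.38 and 3.05), whereas the keratins Krt8 (-2.83 and -2.29) and Krt18 (-3.50 and -2.51) fell in both. Pdgfra, a receptor of primitive endoderm and of mesenchyme, rose (1.18 and 3.56), in contrast to Gata6. Between the RA-DIFF libraries 8 of the 14 were higher and 0 lower in the one labelled Htt-null, where 11.9% of all genes were higher and 9.31% lower. Of the anterior visceral endoderm signals Cer1 had between 2 and 13 counts in any library, Lefty1, also an ESC gene, fell (log2 ratios -6.37 and -6.57), and Lhx1, also a neuronal gene, rose (7.90 and 5.38). Of those 6 signals 4 were above the limit, with 1 higher and 2 lower in the cells labelled wild type and 2 higher and 2 lower in those labelled Htt-null.

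**Figure D4:**
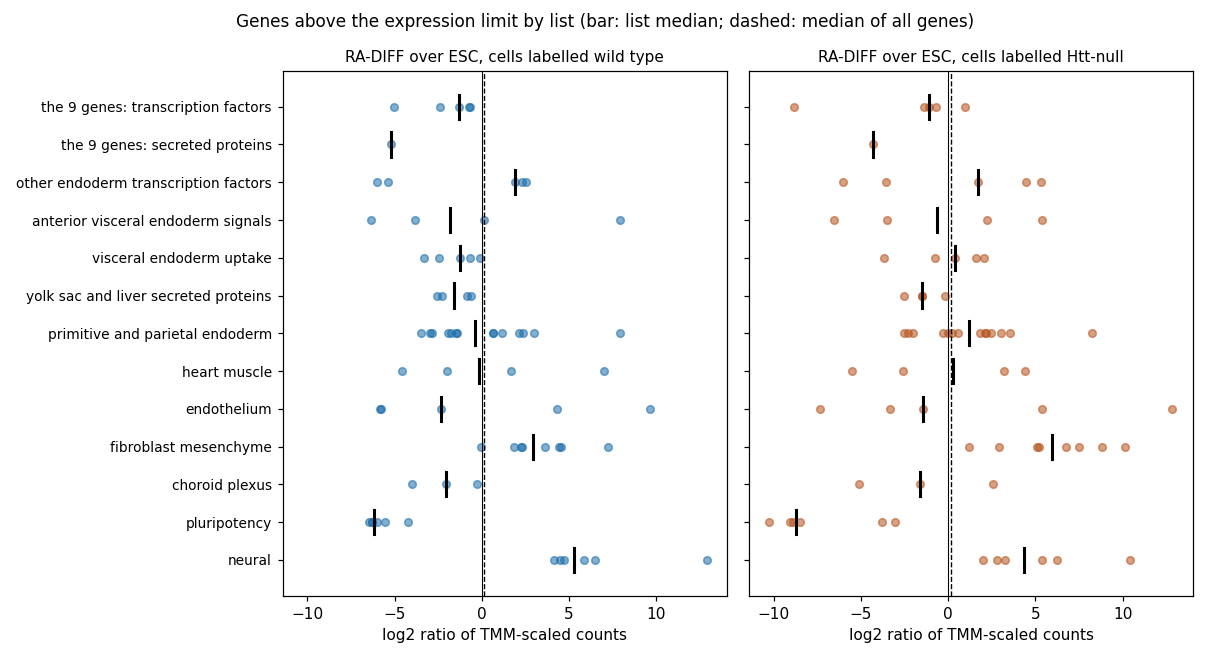
Log2 ratio of RA-DIFF over ESC for each gene above the expression limit, by list, in the cells labelled wild type (left) and Htt-null (right), with list medians as bars and the median of all genes as a dashed line. The genes described here lie mostly left of the line, pluripotency genes far left and neural and nearly all fibroblast genes right, while the other endoderm lists spread to both sides.

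Genes of other cell types that use some of the same factors were examined in the same libraries. Fibroblast and mesenchyme genes had a summed level of 43.4 and 31.6 CPM in wild-type and Htt-null ESC and of 587 and 2097 CPM in RA-DIFF labelled wild type and Htt-null. Between the RA-DIFF libraries all 8 were higher in the one labelled Htt-null, as Sox7 was, beside 11.9% of all genes. Between the ESC lines 6 of the 8 were lower and 0 higher in Htt-null cells (all genes 3.76% and 5.44%), where Sox7 was inside the fold at -0.57. Of 8 endothelial genes 5 were above the limit and 3 were higher and 1 lower in that library (all genes 11.9% and 9.31%), with Kdr at 2011 counts in the library labelled wild type and 7060 in the one labelled Htt-null and Emcn at 110 and 1084. Cdh5, the endothelial cadherin, had 82 and 208 counts there, while Pecam1 had 374 and 128 and Sox18, a relative of Sox7 and Sox17, 30 and 16. The summed level of this list was 24.6 and 86.7 CPM in RA-DIFF but 210 and 242 CPM in ESC, where Pecam1, which ESC express, made up most of it. The part of mesenchymal and endothelial cells in the Sox7 difference was not tested.

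Heart muscle genes had summed levels of 6.92, 11.7, 6.90 and 17.2 CPM in wild-type ESC, Htt-null ESC, RA-DIFF labelled wild type and RA-DIFF labelled Htt-null, and 4 of 8 were above the limit, 2 of them higher (Actc1 and Isl1) and 2 lower (Myh6 and Myl7) in each line, where 34% and 34.4% of all genes were higher and 26.2% and 24.9% lower. Actc1, cardiac actin, had 1, 11, 183 and 348 counts, and Isl1, which motor neurons also express, 93, 89, 386 and 1218. Nkx2-5, a defining factor of the heart field, had 40, 53, 5 and 10 counts, and Tnnt2 54, 29, 11 and 21, both with fewer counts in RA-DIFF, while Hand2 had more (6, 10, 64 and 52). Of the choroid plexus genes, Folr1 and Slc4a5 fell in both lines, and Kcnj13 had 13, 23, 4 and 4 counts and Kl 19, 8, 32 and 11. Clic6 was inside the fold in the cells labelled wild type and rose in those labelled Htt-null (log2 ratio 2.55), and with the labels exchanged it was higher in wild-type (2.11) and inside the fold in Htt-null cells (0.17). The part of these cell types in the levels of Gata4, Gata6 and Ttr was not tested.

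The genes lie on 7 chromosomes. Gata4 and Sox7 are both on chromosome 14, Gata6 and Ttr both on chromosome 18, and Sox17, Hnf4a, Afp, Apoa1 and Apob on chromosomes 1, 2, 5, 9 and 12. The protein-coding gene nearest to Hnf4a, R3hdml, 4.20 kb away, had 234, 176, 5 and 23 counts over the 4 libraries and thus also fell in both lines (log2 ratios -5.88 and -3.52), although between the RA-DIFF libraries it had the opposite order to Hnf4a. Neil2, 5.07 kb from Gata4, fell much further than Gata4 (log2 ratios -4.22 and -5.06). Dsg2, a desmosomal cadherin on the left of Ttr, fell (-5.67 and -5.59) where Ttr had more counts. Ldah, the next protein-coding gene on the right of Apob, stayed inside the fold (log2 ratios 0.00 and 0.35). On the left of Afp lies Alb, itself at 9 counts or fewer.

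The reads of some genes could be shared with a transcript on the opposite strand. The exons of Sox17 share 804 bp with Gm37587 and those of Gata6 share 93 bp with 1010001N08Rik, which had 1 to 5 counts in a library. The study names no strand option for the counting and gives program defaults for what it does not name. Whether the counts of these pairs are separate in the shared stretch was not tested. Hnf4aos, antisense to Hnf4a, shares no exon sequence with it and had at most 2 counts.

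Among all other genes above the limit, those with the course over the 4 libraries most like each of the 6 were sought by the Euclidean distance between centred log2 CPM values. For Hnf4a they were Galnt6 (distance 0.392, with 1404, 1423, 44 and 9 counts) and Tex21 (0.479). For Apob they were Actn3 (0.252, with 4763, 2156, 217 and 210 counts) and Cacng6 (0.269). Gata6 was nearest to Aldh2 (0.115) and Gm30948 (0.137), and Sox7 to 9930012K11Rik (0.119) and Cables1 (0.142). Sox17 was nearest to Srpr (0.0524) and Cbl (0.0772), and Gata4 to RP24-121I11.4 (0.0189) and Ak8 (0.0257). None of these is an endoderm gene of the lists. Within the set, Gata4 and Sox17 were the closest pair (0.508) and Sox7 and Hnf4a the most distant (6.96). With 4 libraries such likeness is a description of 4 points.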

How the data were processed

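RNA was sequenced as strand-specific, poly-A-selected 50 bp paired-end libraries from 1 sample of each of 4 conditions. The authors aligned the reads with TopHat2 2.0.14 to GRCm38.p4 under GENCODE annotation, used HTSeq 0.6.1 (intersection-nonempty) to count them per gene, and the deposited values are these counts without normalization. No strand option is named, and the study gives program defaults for options it does not name. The 4 small RNA libraries of the series, of 8 samples in all, were not used. Each column was assigned by its name.

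TMM factors and log2 ratios (the default prior count of its exact test) were computed with edgeR 4.0.16 in R 4.3.3. With 1 library per condition no replicate spread enters a single comparison, and a fold rule was used for each. A quasi-likelihood fit (edgeR) with stage and genotype as additive terms over the 4 libraries, which has 1 residual degree of freedom, was added after seeing the data. CPM intervals are Wilson and ratio intervals exact binomial, both at 95% and for counting error only. RPKM used exon lengths of GENCODE vM21, in which 32304 of the table's genes were found. The rule was tested on simulated data for Htt-null against wild-type ESC over 15504 genes: 99 of 100 genes changed 2-fold and 100 of 100 changed 4-fold were recovered, with 1 unchanged gene called. The simulation held counting error alone, so this checks the calculation and says nothing of variation between cultures. Named genes are the 9 members, 11 lists of other markers, Htt, the nearest protein-coding neighbours and the 2 genes nearest in course to each member above the limit. The members and lists were chosen with earlier results of these data known, and 1 gene was left out of them. Alternatives were other scalings (library size, DESeq2 1.42.0), a prior count of 2, no expression limit, a fold limit of 1, an added edgeR exact test at an assumed dispersion of 0.01 or 0.1, and exchanged RA-DIFF labels. Intervals used scipy 1.17.1, plots matplotlib 3.10.9, and other steps pandas 2.3.3 and numpy 2.4.6 under Python 3.11.15.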

Additional observations from a re-analysis of the deposited data

Results flagged for a closer look

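Between genotypes by the labels, the log2 ratio of Sox7 (Htt-null to wild type) was -0.5692 for ESC and 1.0711 for RA-DIFF, on opposite sides of 0. That of Hnf4a was 0.927 for ESC and -2.9122 for RA-DIFF, again with opposite signs. The log2 ratio of Sox7 from ESC to RA-DIFF was -0.6959 in the cells labelled wild type and 0.9443 in those labelled Htt-null. In each case the single library pair of one stage or line moved one way and that of the other moved the opposite way, and the difference was not tested. With the RA-DIFF labels exchanged, the log2 ratio between genotypes had the same sign at both stages for Sox7 and Hnf4a, with Sox7 inside the fold in ESC. This follows from the exchange itself. The Sox7 ratios from ESC to RA-DIFF kept opposite signs, at 0.38 in wild-type and -0.13 in Htt-null cells. By the labels Gata4, Gata6, Sox17 and Afp also had opposite signs between genotypes at the 2 stages, and with them exchanged Ttr, Apoa1 and Apob did.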

How the results depend on the processing

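Each stage and genotype has 1 library, so neither the spread between cultures nor the effect of leaving one out is known, and for genes under about 20 counts depth limits the ratio. The labels give no replicate numbers. The additive quasi-likelihood fit, chosen after seeing the data, compares the stages within the lines and the genotypes within the stages. At an adjusted p under 0.05 it called 0 of the set higher after differentiation and, between genotypes, 0 genes and 0 of the set in either direction, by the labels and with them exchanged. Its mean log2 ratio between genotypes was -0.29 for Hnf4a by the labels (above 0 in ESC alone), and 1.49 for Hnf4a and -0.82 for Sox7 with them exchanged. Scaling by library size or DESeq2 size factors moved no ratio of the 9 genes by more than 0.0716 on the log2 scale. Library size alone, and a prior count of 2, each left 1 gene of the set lower in Htt-null ESC, without Gata6. Added exact tests at a dispersion of 0.01 kept every count within 1.5 times.

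Without the expression limit, in the cells labelled wild type 11760 genes were higher and 9960 lower after differentiation, with 1 of the set higher. In those labelled Htt-null these were 11132, 10379 and 3. For Htt-null against wild-type ESC they were 5848 and 4238, with 2 of the set higher and 4 lower, and for RA-DIFF 5841 and 6324, with 3 of the set higher. At a dispersion of 0.1, 2673 and 2466 genes were lower after differentiation in the cells labelled wild type and Htt-null, with 0 of the set higher in the latter. Between ESC lines 152 genes were then higher and 100 lower, with 0 of the set in either direction, and between RA-DIFF libraries 815 and 526, with 0 of the set higher. At a fold limit of 1, 0 of the set were higher after differentiation in the cells labelled Htt-null, and between ESC lines 516 genes were higher and 336 lower, with 0 of the set in either direction.

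With the RA-DIFF labels exchanged, 0 of the set were higher after differentiation in Htt-null cells, where Sox7 was at -0.13, and between RA-DIFF libraries Sox7 was at -1.07 and Hnf4a at 2.91 on the log2 scale. These follow from the exchange itself.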
